A study of Mus musculus with 12 samples.

Results

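Amino acid transporters carry amino acids and related small molecules across the plasma membrane and the membranes of lysosomes. They were taken here as the genes of the solute carrier families Slc1, Slc3, Slc6, Slc7, Slc36, Slc38 and Slc43, by their symbols alone, which gave 44 of the 20069 genes of the table. Poly(A) RNA was sequenced (RNA-Seq) from livers of C57BL/6 mice aged 3 to 6 months that carried no mutation or treatment. The mice were kept for at least 2 weeks in 12 hr of light and 12 hr of dark, and livers were taken at Zeitgeber times ZT2, ZT6, ZT10, ZT14, ZT18 and ZT22, counted in hr from lights on. Each time point was sampled in 2 replicate series, so that there were 12 samples and n = 2 per time point. All mice were in the light cycle, so a rhythm of the clock and a response to light or feeding cannot be told apart, and whole liver RNA does not separate fewer cells of a type from less RNA per cell. The labels do not say whether a sample holds 1 liver or several, so the tests measure the spread between these samples.

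In the liver, these carriers bring in glutamine, alanine and arginine from portal blood, release glutamate and glutamine, and feed the urea cycle and glucose production. The Slc38 family couples neutral amino acids to sodium, Slc7 members carry cationic amino acids or act as the light subunits of 2-chain exchangers, and the 2 Slc3 members are the heavy subunits that bring those light subunits to the membrane. Slc6 carriers use sodium and chloride, Slc36 carriers use protons, Slc1 holds glutamate carriers and neutral exchangers, and Slc43 holds carriers that need no ion gradient. Membership by symbol also takes in genes known for other cargo, such as Slc6a3 (dopamine), Slc6a4 (serotonin), Slc6a8 (creatine) and Slc43a3 (purine bases). Slc7a6os is a neighbour of Slc7a6 on the opposite strand and is not named as a carrier.

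The signal of a gene is its mean coverage over all exon bases, in reads per base pair (rpbp), given here at a scale of 40000000 uniquely mapped sequences per sample. It is divided by the length of all exons of a gene, whichever isoform is made, so levels of different genes are set side by side only roughly. A gene was counted as expressed when at least 1 of its 12 values was above 8 rpbp. Total signal over all genes lay between 1487469 and 1546116 rpbp per sample, and log2 values of the samples of a time point correlated across genes with r between 0.975 and 0.987. No 2 samples held identical values. Of the 6 hepatocyte markers, all were expressed, while the 5 markers of T or B cells had no value above 3.2 rpbp. Albumin stood at 50445 and 53126 rpbp at ZT2 and between 93174 and 122523 rpbp in the other 10 samples. Of the other hepatocyte markers, Ttr and Tat were also lowest in both ZT2 samples, while Apoa1 (17423 and 17762 rpbp) and Serpina1a (3877 and 3883 rpbp) were highest there. Since ZT2 differed in both directions, F24 and its permutation test were also computed without ZT2.

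Of the 44 members, 18 were expressed. A few members held most of the signal, as Slc38a3 had a mean of 1121 rpbp over the 12 samples, Slc38a4 of 710 rpbp and Slc7a2 of 200 rpbp. Those 3 genes made up between 65.4% and 83.0% of the summed signal of all members in each sample. Slc6a13 followed with a mean of 151 rpbp, Slc3a1 with 89.2 rpbp, Slc6a6 with 64.6 rpbp, Slc38a2 with 64.4 rpbp, Slc6a12 with 60.4 rpbp, Slc38a6 with 52.5 rpbp and Slc1a2 with 48.4 rpbp. Lower means were found for Slc6a9 and Slc3a2 (both 29.9 rpbp), Slc36a1 (26.5 rpbp), Slc43a3 (19.2 rpbp) and Slc7a6os (12.3 rpbp). Slc1a4 (7.63 rpbp), Slc36a4 (7.03 rpbp) and Slc43a1 (4.59 rpbp) had means under the minimum and were expressed only through their highest samples.

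**Figure D1:**
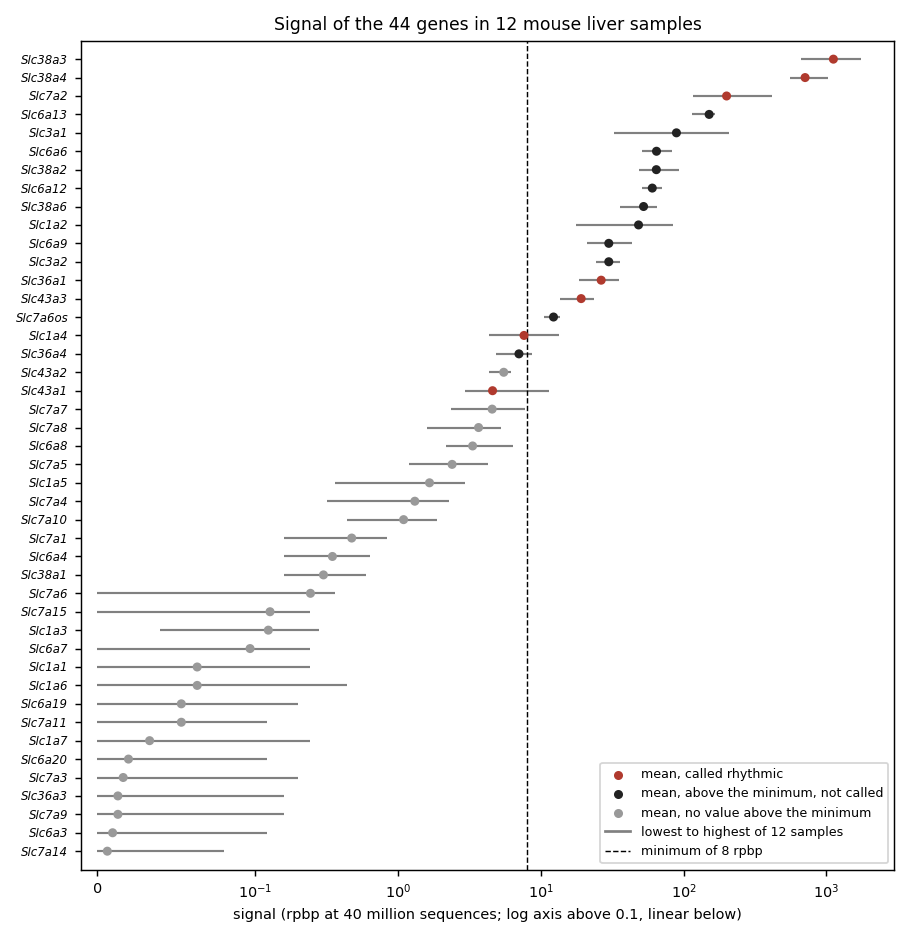
Mean signal (points) and range from the lowest to the highest of 12 samples (lines) for the 44 genes, in rpbp, on an axis that is logarithmic above 0.1 rpbp and linear below, with the minimum of 8 rpbp as a dashed line. Slc38a3 and Slc38a4 lie above all other members in every sample, and 26 genes stay left of the dashed line.

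The other 26 members had no value above 8 rpbp. The 5 of them with a value above 4 rpbp were Slc43a2 (4.36 to 6.16 rpbp), Slc7a7 (2.36 to 7.76 rpbp), Slc7a8 (1.60 to 5.24 rpbp), Slc6a8 (2.16 to 6.40 rpbp) and Slc7a5 (1.2 to 4.24 rpbp). Slc1a5, Slc7a4 and Slc7a10 lay between 0.32 and 2.96 rpbp. The other 18 never passed 0.84 rpbp and were Slc7a1, Slc6a4, Slc38a1, Slc7a6, Slc7a15, Slc1a3, Slc6a7, Slc1a1, Slc1a6, Slc6a19, Slc7a11, Slc1a7, Slc6a20, Slc7a3, Slc36a3, Slc7a9, Slc6a3 and Slc7a14. Of these, 10 were listed at 0 in at least 6 of 12 samples. Both chains of the exchangers differed in level, since none of the 8 (Slc7a5 to Slc7a11 and Slc7a15) was expressed although both heavy subunits were. The usual partner of Slc3a1, Slc7a9, was listed at 0 in 11 of 12 samples.

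To ask which members follow a daily rhythm, the criteria of the study were applied. F24 is the share of the variance of the 12 values that lies in a 24 hr wave, and the amplitude divides the maximum of the 12 values by their minimum. A gene was called rhythmic with F24 above 0.45, amplitude above 1.5 and a permutation p below 0.05 from 10000 random orders of the 12 values. By these criteria 7 of the 18 expressed members were rhythmic, against 19.1% of all 10198 expressed genes. The median F24 was 0.432 over the 18 members and 0.310 over all expressed genes, and the median amplitude was 1.87 and 1.64. Of the 15 members with a mean of at least 8 rpbp, 5 were rhythmic, against 18.8% of all genes with such a mean. After Benjamini-Hochberg adjustment over all expressed genes the permutation p stayed below 0.05 for 2 members, Slc38a3 and Slc43a3, where 5.62% of all genes did. The rhythmic members had different phases. They ran from ZT7.87 to ZT12.7 for Slc38a4, Slc7a2, Slc38a3, Slc43a1 and Slc43a3, and were ZT0.344 for Slc36a1 and ZT0.601 for Slc1a4. How many of all rhythmic genes peak at such times was not counted.

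**Figure D2:**
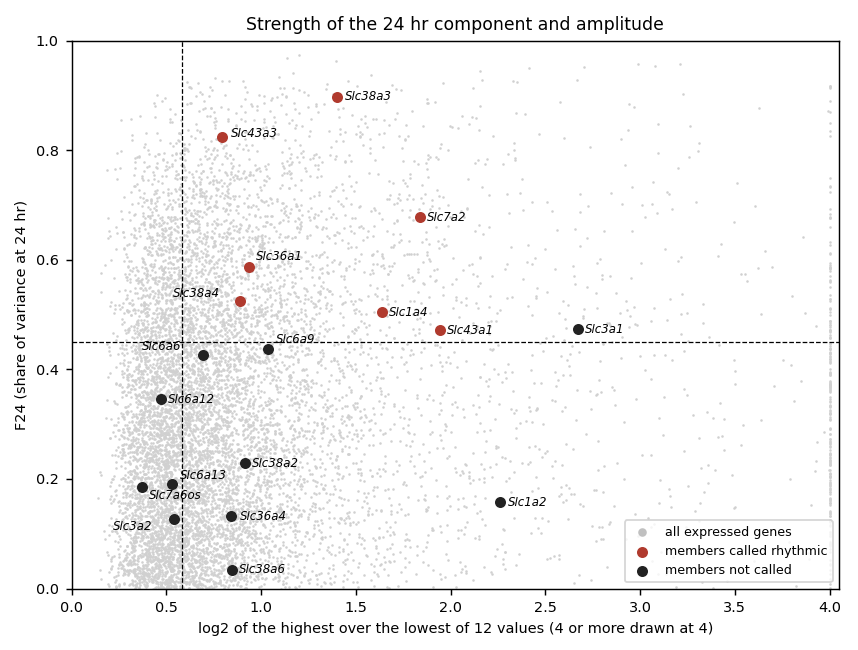
F24 (vertical) against the log2 of the amplitude (horizontal) for all 10198 expressed genes (grey) and the 18 expressed members, red where called rhythmic and black where not, with the limits of 0.45 and 1.5 as dashed lines. Slc38a3 has the highest F24 of the members at 0.898, while Slc3a1 passes both limits but missed the permutation test with p = 0.0591.

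Slc38a3, one of the sodium coupled neutral carriers, had the highest F24 of the expressed members. It is the carrier that moves glutamine, histidine and asparagine with sodium and against protons, and lies at chr9:107552970-107569705 on the minus strand of mm9. Its signal was 1009 and 854 rpbp at ZT2, 1757 and 1739 rpbp at ZT6, 1683 and 1497 rpbp at ZT10, 932 and 1125 rpbp at ZT14, 698 and 744 rpbp at ZT18, and 665 and 752 rpbp at ZT22 (series 1 and series 2). The 4 samples of ZT6 and ZT10 were above all 8 others, and the 4 samples of ZT18 and ZT22 were below all others. The mean was 1748 ± 12.4 rpbp (SD, n = 2) at ZT6 and 708 ± 61.5 rpbp at ZT22, a ratio of 2.47. F24 was 0.898 with a phase of ZT8.06, and the permutation p was 0.0002 (adjusted p = 0.0167). Leaving out any single sample, or both ZT2 samples, kept the adjusted permutation p at or under 0.0378.

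Slc38a4, a sodium coupled carrier of alanine and other small neutral amino acids that is known as an imprinted gene, was highest at ZT6. At ZT6 it stood at 1030 and 980 rpbp, and at ZT10 at 832 and 721 rpbp. Its values were 573 and 556 rpbp at ZT2, 624 and 707 rpbp at ZT14, 616 and 628 rpbp at ZT18, and 624 and 632 rpbp at ZT22. Both ZT6 samples were above all others and both ZT2 samples below all others, and the ratio of these means was 1.78. F24 was 0.525 with a phase of ZT7.87 and a permutation p of 0.029 (adjusted p = 0.145). Without the series 2 sample of ZT6 the permutation p was 0.0556, so that the call was lost. Without both ZT2 samples F24 was 0.834 and the permutation p 0.0015.

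The other 2 expressed members of the family were not called. Slc38a2, a neutral carrier known to be induced when amino acids are short, lay between 49 and 92.4 rpbp with F24 = 0.229 and a permutation p of 0.309. Slc38a6 lay between 36.1 and 64.9 rpbp with F24 = 0.0345, the lowest of the 18 members. In mm9, Slc38a1, Slc38a2 and Slc38a4 lie in a row on chromosome 15 with gaps of 44.5 kb and 295 kb between them, and their mean signals were 0.30, 64.4 and 710 rpbp.

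Slc7a2, the only expressed cationic carrier, takes up arginine, lysine and ornithine and lies at chr8:41947750-42007662. Of its 9135 exon bases, 635 are shared with exons of Gm17475 on the opposite strand, whose reads cannot be told apart without strand. Its signal was 135 and 116 rpbp at ZT2, 414 and 321 rpbp at ZT6, 279 and 254 rpbp at ZT10, 157 and 201 rpbp at ZT14, 124 and 130 rpbp at ZT18, and 130 and 143 rpbp at ZT22. As for Slc38a3, the 4 samples of ZT6 and ZT10 were above all 8 others. The means ran from 125 ± 13.6 rpbp at ZT2 to 367 ± 65.5 rpbp at ZT6 (SD, n = 2), a ratio of 2.93, which was the widest of the rhythmic members. F24 was 0.677 with a phase of ZT7.98 and a permutation p of 0.0046 (adjusted p = 0.0621). Without both ZT2 samples F24 was 0.887 and the adjusted permutation p 0.0358. Slc38a3 and Slc7a2 were the 2 members that also passed the stricter F24 and amplitude limits of the study for a strong rhythm, which 7.89% of all expressed genes passed.

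**Figure D3:**
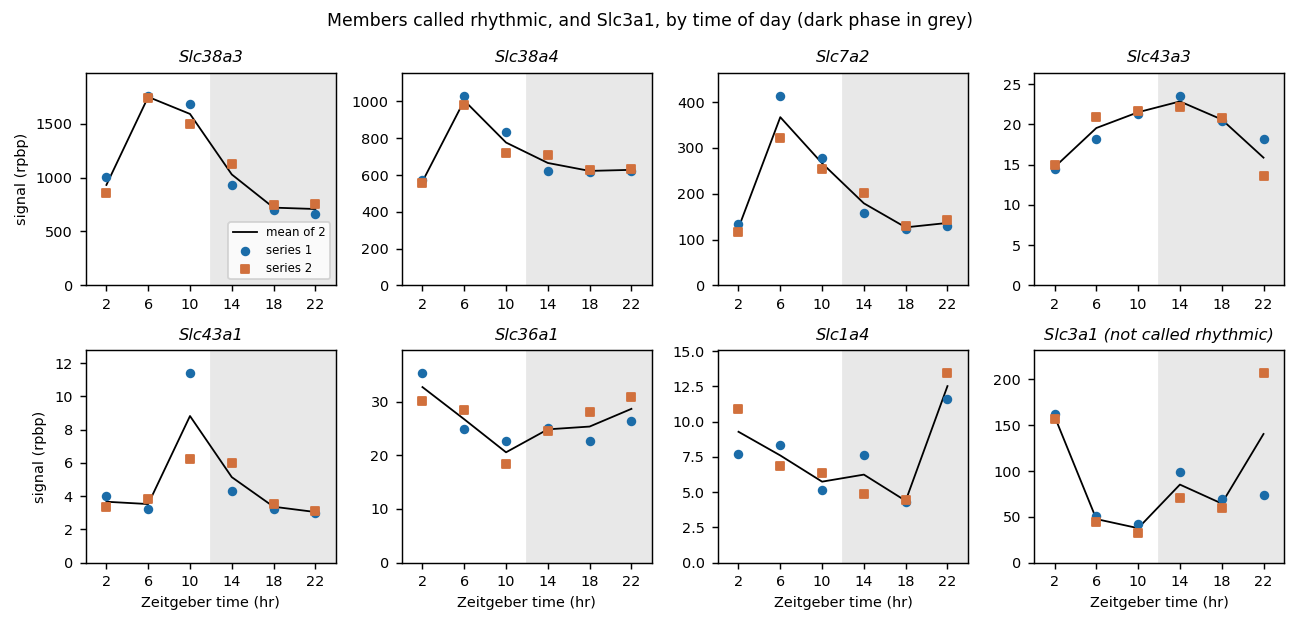
Signal in rpbp (vertical, from 0) against Zeitgeber time (horizontal, hr) for the 7 rhythmic members and Slc3a1, with series 1 as circles, series 2 as squares, their mean as a line and the dark phase in grey. Slc38a3, Slc38a4 and Slc7a2 have their highest mean at ZT6, and the series of Slc3a1 part at ZT22 (74 and 207 rpbp).

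Both Slc43 members above the minimum were rhythmic and peaked later. Slc43a3 stood at 14.4 and 15 rpbp at ZT2, 18.2 and 20.9 rpbp at ZT6, 21.3 and 21.7 rpbp at ZT10, 23.5 and 22.2 rpbp at ZT14, 20.4 and 20.8 rpbp at ZT18, and 18.2 and 13.6 rpbp at ZT22. The 6 samples from ZT10 to ZT18 all lay above the ZT2 and ZT22 samples, and series 2 at ZT6 lay among them. F24 was 0.824 with a phase of ZT12.7 and a permutation p of 0.0003 (adjusted p = 0.0194). The adjusted permutation p reached 0.05 or more when any of 6 single samples was left out (highest 0.0632), each from ZT10, ZT14 or ZT18, and was 0.0544 without both ZT2 samples.

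Slc43a1, a carrier of leucine and other branched amino acids, lies 73 kb from Slc43a3 on chromosome 2. It had 11.4 and 6.24 rpbp at ZT10 and 4.28 and 6.00 rpbp at ZT14, while its values were 4.00 and 3.32 rpbp at ZT2, 3.24 and 3.80 rpbp at ZT6, 3.20 and 3.52 rpbp at ZT18, and 2.96 and 3.12 rpbp at ZT22. Only the series 1 sample of ZT10 was above 8 rpbp, so the gene was tested because of that sample. F24 was 0.471 with a phase of ZT10.7, and the permutation p was 0.0042 (adjusted p = 0.0591).

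The remaining rhythmic members were highest around lights on. Slc36a1, a proton coupled carrier of small neutral amino acids found on lysosomes, had 35.3 and 30.1 rpbp at ZT2, 24.9 and 28.5 rpbp at ZT6, 22.7 and 18.4 rpbp at ZT10, 25.1 and 24.6 rpbp at ZT14, 22.6 and 28.1 rpbp at ZT18, and 26.4 and 30.9 rpbp at ZT22. The ZT2 and ZT22 samples overlapped, and the ZT10 pair overlapped with ZT18. F24 was 0.586 with a phase of ZT0.344 and a permutation p of 0.0189 (adjusted p = 0.116). The call was lost without the series 1 sample of ZT2 (p = 0.0505) and without both ZT2 samples (p = 0.116), by the same permutation test.

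Slc1a4, a sodium dependent exchanger of alanine, serine and cysteine, had 11.6 and 13.4 rpbp at ZT22 and 7.68 and 10.9 rpbp at ZT2. It stood at 8.32 and 6.88 rpbp at ZT6, 5.12 and 6.36 rpbp at ZT10, 7.64 and 4.84 rpbp at ZT14, and 4.32 and 4.44 rpbp at ZT18. Both ZT22 samples were above all others and both ZT18 samples below all others, so that the largest step was between neighbouring time points. F24 was 0.505 with a phase of ZT0.601, and the permutation p was 0.0464 (adjusted p = 0.182). This call was lost in 8 of 12 runs that left out a single sample, on a log2 scale and with size factors.

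Promoters of the expressed members were looked up in a set made from RefSeq (GRCm38.p6). The windows ran from 250 bases before to 50 bases after each start. Windows were found for 14 of the 18 expressed members. The rhythmic members Slc38a3, Slc7a2 and Slc43a3, and also Slc6a6, had no window in the set used and were not read. The windows were searched on both strands for the E-box CACGTG, the element bound by the clock factors CLOCK and BMAL1, and for the D-box forms TTATGCAA and TTATGTAA, bound by factors such as DBP. They were also searched for the amino acid response element forms TGATGCAAT, TGATGAAAC and TGATGTAAT, bound by ATF4, and, chosen after the sequences were seen, for TGATGCAA, which is part of the form TGATGCAAT. The E-box was in 7.15% of all 32851 windows, the D-box forms in 1.66%, the response element forms in 0.776% and TGATGCAA in 0.895%. Over all members with a window, expressed or not, the E-box was in 6 of 51 windows. The D-box forms were in 1 of these 51, the response element forms in 0 and TGATGCAA in 4. The members named next are counted by gene, and a gene can have several windows, so their number cannot be set against the shares of windows. Of the 14 expressed members, the E-box was found in Slc36a1 and Slc43a1, a D-box form in Slc1a2, and TGATGCAA in Slc1a4, where it stands on the strand opposite to the gene and the window reads TTGCATCA. None of the 3 windows of Slc38a4 held any of these letters. A match of letters is a description of the window and no measure of binding. The windows with a match are shown 5′ to 3′ on the strand of the gene, with the matches in capitals. They lie at chr11:55204090-55204389 (Slc36a1, plus strand), chr2:84840073-84840372 (Slc43a1, plus strand), chr11:20332664-20332963 (Slc1a4, minus strand) and chr2:102706188-102706487 (Slc1a2, plus strand).
Slc36a1: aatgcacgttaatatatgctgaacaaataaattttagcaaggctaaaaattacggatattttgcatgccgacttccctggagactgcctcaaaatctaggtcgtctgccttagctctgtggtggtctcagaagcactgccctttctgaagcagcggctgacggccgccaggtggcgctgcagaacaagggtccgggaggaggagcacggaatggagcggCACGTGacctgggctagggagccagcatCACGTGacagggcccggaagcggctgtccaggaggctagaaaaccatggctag
Slc43a1: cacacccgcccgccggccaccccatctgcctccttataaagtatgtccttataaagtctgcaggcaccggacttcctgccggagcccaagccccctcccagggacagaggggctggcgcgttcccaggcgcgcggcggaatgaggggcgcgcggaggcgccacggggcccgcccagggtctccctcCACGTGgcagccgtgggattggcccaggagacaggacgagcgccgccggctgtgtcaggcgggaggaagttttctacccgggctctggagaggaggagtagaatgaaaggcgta
Slc1a4: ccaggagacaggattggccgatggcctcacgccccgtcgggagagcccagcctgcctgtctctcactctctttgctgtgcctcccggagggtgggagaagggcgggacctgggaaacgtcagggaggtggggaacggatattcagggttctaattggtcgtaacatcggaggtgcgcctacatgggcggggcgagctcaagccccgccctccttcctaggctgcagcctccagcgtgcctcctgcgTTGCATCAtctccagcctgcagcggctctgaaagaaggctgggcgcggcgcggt
Slc1a2: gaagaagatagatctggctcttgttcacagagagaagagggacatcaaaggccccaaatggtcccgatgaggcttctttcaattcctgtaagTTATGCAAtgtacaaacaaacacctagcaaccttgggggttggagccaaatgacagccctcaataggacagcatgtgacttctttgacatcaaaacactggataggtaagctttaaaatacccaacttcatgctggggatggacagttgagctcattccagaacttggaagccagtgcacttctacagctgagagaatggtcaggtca

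The E-boxes of Slc36a1 begin 31 and 3 bases before the start, and that of Slc43a1 begins 64 bases before it.

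The heavy subunits were not called rhythmic, but Slc3a1 varied widely. Slc3a1 pairs with light subunits for cystine and dibasic amino acids. It had 163 and 157 rpbp at ZT2, 50.7 and 44.3 rpbp at ZT6, 42.6 and 32.4 rpbp at ZT10, 99.4 and 71.0 rpbp at ZT14, 69.2 and 59.8 rpbp at ZT18, and 74.0 and 207 rpbp at ZT22. The ZT6 and ZT10 samples were below all others in both series, and the ZT22 samples differed by more than any other pair. F24 was 0.473, the amplitude 6.38 and the permutation p 0.0591, which missed the threshold. On the log2 scale, and without the series 1 sample of either ZT14 (p = 0.0343) or ZT22 (p = 0.0182), the same permutation test passed. The gene lies at chr17:85427687-85463583 on the plus strand, and its last 608 exon bases, 26.4% of its exon length, are shared with exons of Prepl on the minus strand. The authors counted reads without strand, so reads from the shared bases cannot be told apart. Prepl was itself rhythmic (F24 = 0.586, phase ZT23.1, permutation p = 0.0217, adjusted p = 0.124), with 44.2 and 41.6 rpbp at ZT2, 16 and 17.6 rpbp at ZT10, and 28.4 and 50.1 rpbp at ZT22. Slc3a1 was 1.84 to 4.13 times as high as Prepl in every sample, so the samples are high and low for both genes but not in a fixed ratio. The part of the shared bases in the Slc3a1 pattern was not tested. Slc3a2, the heavy subunit for large neutral amino acid exchange, lay between 24.5 and 35.6 rpbp with F24 = 0.127 and a permutation p of 0.528.

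**Figure D4:**
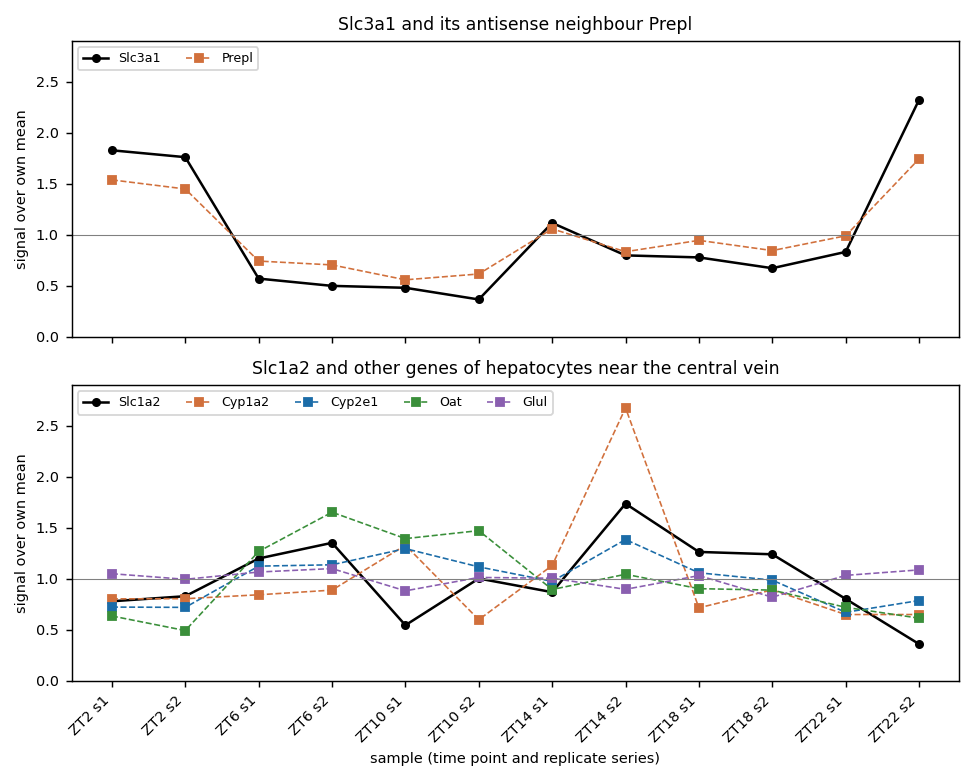
Signal of each gene divided by its own mean over the 12 samples (vertical, from 0) for each sample in order of time and series (horizontal), with Slc3a1 and Prepl above and Slc1a2 and other pericentral genes below. Slc3a1 and Prepl are both highest in the series 2 sample of ZT22 (207 and 50.1 rpbp), while Slc1a2 and Cyp1a2 are both highest in the series 2 sample of ZT14 (84.1 and 2558 rpbp) but differ in opposite directions at ZT10 (26.4 and 48.6 against 1272 and 574 rpbp).

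Slc1a2 was not called rhythmic, and some of its pairs differed widely. This glutamate carrier is known in the liver from the hepatocytes around the central vein, where glutamine is made. Its signal was 37.8 and 40.2 rpbp at ZT2, 58.1 and 65.5 rpbp at ZT6, 26.4 and 48.6 rpbp at ZT10, 42.1 and 84.1 rpbp at ZT14, 61.2 and 60.1 rpbp at ZT18, and 38.9 and 17.5 rpbp at ZT22. At ZT10, ZT14 and ZT22 the samples of a pair lay far apart, while those of ZT2, ZT6 and ZT18 lay close together. F24 was 0.158 with a permutation p of 0.464, and the limma test of time points gave an adjusted p of 0.184. Of the 7 pericentral markers, which include Slc1a2, 6 were expressed, 2 (Cyp2e1 and Oat) were rhythmic, where 19.1% of all expressed genes were, and none was at 0 throughout, and their summed signal ran from 10227 to 17855 rpbp in the light and from 9790 to 19883 rpbp in the dark. The markers did not all differ within pairs as Slc1a2 did. Cyp1a2 had 1082 and 2558 rpbp at ZT14 but 1272 and 574 rpbp at ZT10, where Slc1a2 differed the other way, and 623 and 623 rpbp at ZT22. Rhbg, an ammonia carrier, had 16.9 and 11.8 rpbp at ZT14, where it differed the other way from Slc1a2. At ZT10 (16.5 and 20.7 rpbp) and ZT22 (18 and 12.4 rpbp) Rhbg differed in the same direction as Slc1a2. Oat did so at ZT10 (1269 and 1340 rpbp), ZT14 (815 and 951 rpbp) and ZT22 (656 and 560 rpbp). Cyp2e1 did so at ZT14 (10885 and 15454 rpbp) but not at ZT10 (14462 and 12468 rpbp) or ZT22 (7506 and 8788 rpbp). Glul, the glutamine synthetase of the same cells, stayed between 750 and 1007 rpbp over all samples. The part of the pericentral share in the Slc1a2 values was not tested.

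None of the 4 expressed Slc6 members was called rhythmic. Slc6a13, a carrier of GABA and taurine, had 154 and 161 rpbp at ZT2, 160 and 163 rpbp at ZT6, 115 and 145 rpbp at ZT10, 159 and 134 rpbp at ZT14, 159 and 166 rpbp at ZT18, and 147 and 150 rpbp at ZT22. The lowest time-point mean was at ZT10, F24 was 0.191 and the permutation p was 0.406. Its neighbour Slc6a12, the betaine carrier, begins 5.34 kb away on chromosome 6 and lay between 51.2 and 70.9 rpbp, with an amplitude of 1.39 under the limit. Slc6a6, the taurine carrier, ranged from 51.1 to 82.8 rpbp and was highest at ZT22 with 78.6 ± 5.88 rpbp (SD, n = 2), and its permutation p was 0.0851. It passed the criteria without the series 2 sample of ZT6 (p = 0.0341) and without both ZT2 samples (p = 0.0192), by the same permutation test. Slc6a9, the glycine carrier, ranged from 21.0 to 43.2 rpbp, with the highest mean at ZT10 and a permutation p of 0.071. It passed the criteria without either series 2 sample of ZT14 (p = 0.0196) or ZT22 (p = 0.0488) by the same permutation test. By the GENCODE annotation exons of Gm17114, Ccdc24 and B4galt2 on the opposite strand overlap its exons, with a largest overlap of 1429 of its 5141 exon bases. The last of the expressed members, Slc36a4 and Slc7a6os, had F24 of 0.132 and 0.186, and their lowest and highest values were 4.84 and 8.68 rpbp, and 10.5 and 13.6 rpbp.

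Each series taken alone has 6 samples, and the exact test over all 720 orders cannot go below p = 0.0167. For Slc38a3, F24 was 0.936 in series 1 (exact p = 0.0333) and 0.875 in series 2 (exact p = 0.10). For Slc43a3 the values were 0.942 in series 1 (exact p = 0.0333) and 0.842 in series 2 (exact p = 0.05). For Slc7a2 they were 0.716 (exact p = 0.10) and 0.722 (exact p = 0.20). Slc43a1 had F24 = 0.862 in series 2 (exact p = 0.0167) and an exact p of 0.183 in series 1. Slc6a9, which was not called over the 12 samples, had F24 = 0.994 in series 1 (exact p = 0.0167) and 0.516 in series 2 (exact p = 0.333). The exact p was below 0.05 for 3 of 18 members in series 1 (Slc38a3, Slc43a3 and Slc6a9), where 4.75% of all expressed genes passed, and for 1 of 18 in series 2 (Slc43a1), where 6.3% passed. The minimum of 8 rpbp was not applied again within a series, and the highest value of Slc43a1 in series 2 was 6.24 rpbp.

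A test that asks for no particular shape gave a similar number of members. With limma on log2(rpbp + 1), the F-test over the 6 time points passed (adjusted p below 0.05) for 7 of 18 members, where 17.6% of all expressed genes passed. Of the 15 members with a mean of at least 8 rpbp, 5 passed the same limma test, where 20.9% of all genes with such a mean passed. The 7 were Slc38a3 (adjusted p = 0.00185), Slc7a2 (0.00241), Slc38a4 (0.00847), Slc1a4 (0.0232), Slc3a1 (0.0328), Slc43a1 (0.0358) and Slc43a3 (0.0471). Slc36a1 was rhythmic by F24 but had an adjusted p of 0.111 in this limma test, and Slc3a1 passed here but not by F24. Leaving out 1 sample took the number to between 3 and 6, and Slc38a3 and Slc7a2 passed the limma test in all 12 such runs. The limma calls of Slc3a1, Slc43a1 and Slc43a3 were each lost in 10 of the 12 runs, that of Slc1a4 in 3 and that of Slc38a4 in 1. A 24 hr wave fitted by limma passed for 3 members, Slc38a3, Slc7a2 and Slc43a3, where 8.61% of all genes passed. The fitted peak-to-trough difference on the log2(rpbp + 1) scale was 1.41 ± 0.13 (SE) for Slc38a3, 1.44 ± 0.26 for Slc7a2 and 0.61 ± 0.11 for Slc43a3.

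The dark time points ZT14, ZT18 and ZT22 were then set against the light time points ZT2, ZT6 and ZT10, with 6 samples in each. By limma on log2(rpbp + 1), 3 of 18 members were lower in the dark, where 2.21% of all genes were, and 0 of 18 were higher in the dark, where 2.84% of all genes were. At an unadjusted limma p below 0.05, 1 of 18 members (Slc3a2) was higher in the dark, where 10.2% of all genes were. The difference was -0.77 ± 0.08 (SE) for Slc38a3 (adjusted p = 0.00167), -0.66 ± 0.09 for Slc7a2 (adjusted p = 0.00729) and -0.25 ± 0.06 for Slc38a4 (adjusted p = 0.0494). The mean of Slc38a3 was 1423 rpbp in the light and 819 rpbp in the dark, and that of Slc7a2 was 253 and 147 rpbp. Light and dark samples of all 3 genes overlapped, since the ZT2 samples were as low as dark samples. The Slc38a4 call was lost by limma when any of 11 of the 12 samples was left out, with adjusted p between 0.0378 and 0.124 over all runs. Over the 18 members the signs were even, with 9 lower and 9 higher in the dark.

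**Figure D5:**
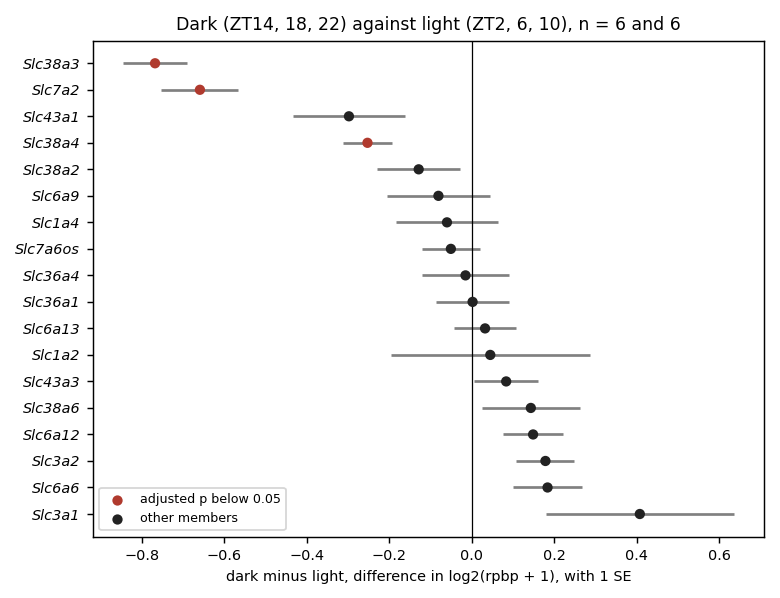
Difference between dark (ZT14, ZT18 and ZT22) and light (ZT2, ZT6 and ZT10) in log2(rpbp + 1) for the 18 expressed members, with 1 SE from limma and n = 6 per phase, red where the adjusted p was below 0.05. Slc38a3 (-0.77) and Slc7a2 (-0.66) lie farthest from 0.

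Between the 2 replicate series, 0 of 18 members and 0 of 10198 genes differed by limma. At an unadjusted limma p below 0.05 there were 0 members, the lowest p being 0.162 for Slc38a2, and 426 genes. The share of genes called was 0%.

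The summed signal of the 44 members followed its main carriers. It was 2460 and 2277 rpbp at ZT2, 3855 and 3731 rpbp at ZT6, 3372 and 3110 rpbp at ZT10, 2454 and 2710 rpbp at ZT14, 2092 and 2204 rpbp at ZT18, and 2098 and 2336 rpbp at ZT22. The 4 samples of ZT6 and ZT10 were above all others. Slc38a3 alone made up 49.9% and 48.1% of the sum at ZT10, and 31.7% and 32.2% at ZT22. Without Slc38a3, Slc38a4 and Slc7a2 the sum was lowest at ZT10 in series 1 (577 rpbp) and highest at ZT22 in series 2 (809 rpbp).

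Other genes of amino acid handling were described from lists. Of 25 genes of the amino acid response, by which cells answer a lack of amino acids, 15 were expressed and 5 were rhythmic, where 19.1% of all expressed genes were. The adjusted permutation p was below 0.05 for Atf5 alone, where 5.62% of all expressed genes passed. Of the other rhythmic genes of the list it was 0.0753 for Atf4, 0.114 for Chac1, 0.125 for Cth and 0.139 for Trib3. Atf4 and Atf5, transcription factors of that response, were highest around the dark-to-light change, with phases of ZT23.4 and ZT22.4 and F24 of 0.660 and 0.704. Atf5 had an adjusted permutation p of 0.0321 and stood at 555 and 577 rpbp at ZT22 against 175 and 232 rpbp at ZT10. Trib3, an inhibitor of ATF4 and of AKT signalling, had 12.2 and 10.8 rpbp at ZT6 and at most 5.04 rpbp elsewhere. Chac1, a glutathione-degrading enzyme, had 10.2 and 15.6 rpbp at ZT10 and at most 7.68 rpbp elsewhere. Cth, which makes cysteine from cystathionine, was lowest at ZT2 (348 and 372 rpbp). Trib3 was above 8 rpbp only in its ZT6 samples, so that it was tested because of the light samples in which it is high, and Chac1 only in its ZT10 samples. In the limma comparison of dark with light on log2(rpbp + 1), Cth was higher in the dark (0.36 ± 0.06 SE, adjusted p = 0.0141), where 2.84% of all expressed genes were.

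Of 25 genes of lysosomal amino acid sensing, 14 were found under these symbols, 11 were expressed and 1 was rhythmic, again beside 19.1% of all expressed genes for this and the next lists. It was Fnip1, a partner of folliculin, with a phase of ZT8.67, F24 = 0.592 and a permutation p of 0.0216 (adjusted p = 0.124). Of 8 enzymes that make or use glutamine and glutamate, 7 were found, 6 were expressed and 0 were rhythmic. By the permutation test 1 of these 6 had an unadjusted p below 0.05, where 26.6% of all expressed genes did. By the limma test of time points 0 of 6 passed after adjustment, where 17.6% of all genes passed, and 2 of 6 had an unadjusted p below 0.05, where 37.2% did. A list of 8 symbols, mostly of carriers outside these families, also held Slc7a6os, which is already a member. Of these symbols 6 were found, 6 were expressed and 2 were rhythmic. Slc15a4, a lysosomal carrier of histidine and peptides, had 10.5 and 11.8 rpbp at ZT2 and 30.2 and 26.7 rpbp at ZT14, with F24 = 0.824, a phase of ZT12.4 and an adjusted permutation p of 0.0167. Pqlc2, a lysosomal carrier of cationic amino acids, lay between 6.68 and 10.6 rpbp with a phase of ZT21.4 and a permutation p of 0.0409 (adjusted p = 0.172).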

How the data were processed

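Poly(A) RNA libraries of 12 liver samples were analysed. The authors processed images with CASAVA 1.8, mapped the reads with TopHat to mm9 and kept unique reads. The deposited signal is the coverage that the authors summed over the flattened exons of a gene without regard to strand, divided by exon length (rpbp) and scaled to 10000000 sequences. Signal was multiplied by 4 here. The deposited columns named ZT20 were taken as the ZT22 samples. The authors' own F24 scores, phases and p-values in the table were not used. The signal gives no read counts, so depth is not shown by the values and no counting interval is given.

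Members and gene lists were chosen with earlier results of these data known. Every expressed member is named with its mean, rhythmic members and the 5 highest by mean are given in full, and rhythmic genes are named from the lists of amino acid handling and from the pericentral markers beside Slc1a2, not from the other cell type markers. F24 and its permutation test (10000 orders, seed 1) ran in Python 3.11.15 with numpy 2.4.6, and limma 3.58.1 in R 4.3.3 on log2(rpbp + 1), each over all 10198 expressed genes with Benjamini-Hochberg adjustment. Both were tested on simulated data. Gene places and exon overlaps came from the GENCODE annotation of mm9. Alternatives were other minimums, pseudocounts, scalings, a replicate block and left-out samples. The runs without ZT2 and the search for TGATGCAA were added after seeing the data.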

Additional observations from a re-analysis of the deposited data

How the results depend on the processing

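The number of rhythmic members was 7 and lay between 5 and 8 with other minimums, size factors, log2 values, amplitudes from time-point means, 100000 permutations and without both ZT2 samples (6). It was 2 when the adjusted permutation p was required and 3 when the limma wave was required. Leaving out samples or a whole series gave between 1 and 8. The minimum was not applied again in these runs, and the 1 in series 2 alone was Slc43a1, whose highest value there was 6.24 rpbp. The number of members with an adjusted permutation p below 0.05 was 2, and 1 to 2 with a sample left out. Without both ZT2 samples it was also 2, but with Slc7a2 in place of Slc43a3. The limma test of time points passed for 7 members, for 3 with no minimum and for 3 to 6 with a sample left out. Slc38a3 kept every call except that by the exact test in series 2 alone.

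The replicate numbers did not pair the samples, since the deviations of a series correlated between time points with r from -0.15 to 0.21 and in 2 of 15 pairs above 0.1. With the number as a replicate block, the number of rhythmic members was 7, with an adjusted p 2, by the limma test of time points 4, dark against light 2 and by the limma wave 3. The 4 were Slc1a4, Slc38a3, Slc38a4 and Slc7a2, so the time-point calls of Slc3a1, Slc43a1 and Slc43a3 were lost. Members without a value above 8 rpbp were tested only in the run with no minimum.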

Other observations

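Some carriers of these families stand in the table under older names and were not taken by the rule. They were found by RefSeq synonyms after the values were seen. Slc38a10, listed as 1810073N04Rik, lay between 57.3 and 76.8 rpbp with F24 = 0.184 and a permutation p of 0.406. Slc38a9, the lysosomal arginine sensor listed as 9130023D20Rik, lay between 5.28 and 7.96 rpbp, just under the minimum.

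Among members without a value above 8 rpbp, Slc7a7, a light subunit for cationic and neutral amino acid exchange that macrophages use, had 7.64 and 7.76 rpbp at ZT2 and 2.36 to 5.64 rpbp in the other 10 samples. Of its 2270 exon bases, 226 are shared with exons of Oxa1l on the opposite strand, whose reads cannot be told apart without strand. The summed signal of the 6 markers of Kupffer cells, the macrophages of the liver, was 568 and 566 rpbp at ZT2 and 273 to 452 rpbp in the other samples, and none of the 6 was at 0 throughout. Their part in the Slc7a7 values was not tested. Slc6a8, the creatine carrier, had 6.08 and 5.80 rpbp at ZT2 and 2.32 and 6.40 rpbp at ZT22, and 2.16 to 2.76 rpbp in the other 8 samples, and it met the criteria for a rhythm when no minimum was set.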
